A study of Mus musculus with 2 samples.

Results

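Clec4a1, Clec4a2, Clec4a3, Clec4b1, Clec4d, Clec4e, Clec4n, Clec7a, Clec10a and Clec12a are 10 C-type lectin receptor genes of myeloid cells, found by their symbols among the 22886 genes of the deposited tables. They were measured by RNA sequencing of polyA RNA in 2 libraries, 1 from mice injected with vehicle and 1 from mice injected with clodronate, a drug that is given in liposomes to remove macrophages. Both libraries were made from cells that FACS had sorted out of LLC (Lewis lung carcinoma) tumors, a transplantable lung cancer of the mouse that here grew subcutaneously, and that the labels call aerobic. All mice were of the strain C57BL/6 and of wild type genotype, so that the injection is the only difference the labels give. The labels state neither the dose, the time after injection, the age of the mice nor how many tumors went into a library, and a growth protocol attached to both libraries names EML cells, a blood progenitor line, which conflicts with the other labels. With 1 library per condition there is no spread between replicates, no test was made, and each difference below is a difference between these libraries. The 10 receptors were selected by name with the vehicle and clodronate values already known, so that their levels and differences are given as a description.

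C-type lectin receptors are surface proteins that carry a lectin-like domain and bind sugars, lipids or proteins of microbes and of dying cells. Several of them have no signaling tail of their own and pair with the Fc receptor gamma chain (Fcer1g), whose ITAM motif recruits the kinase Syk and passes the signal to the adaptor Card9 and on to NF-κB. Others carry an inhibitory ITIM motif in their own tail, which recruits phosphatases such as Ptpn6. Macrophages, monocytes, neutrophils and dendritic cells express different sets of them.

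All 10 receptors passed the filter on low values, as did 10982 genes in all. It asked for a mean over both libraries of 1 or more in RPKM, the deposited unit, which scales the reads to transcript length and library size. Of the 10, 8 were lower in the clodronate library than in the vehicle library and 2 were higher. The 8 lower receptors differed by 1.16 to 2.10-fold, and the 2 higher receptors, Clec10a and Clec4b1, stood much farther out. The log2 ratio used below adds 1 to both RPKM values and divides the clodronate value by the vehicle value. Its median was -0.63 over the 10 receptors and 0.019 over all genes kept, of which 48.4% were below 0. Summed over the 10 receptors, the level was 1445 RPKM in the vehicle library and 899.9 RPKM in the clodronate library. In bulk RNA, fewer cells that express a receptor and less RNA of it per cell cannot be told apart.

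**Figure D1:**
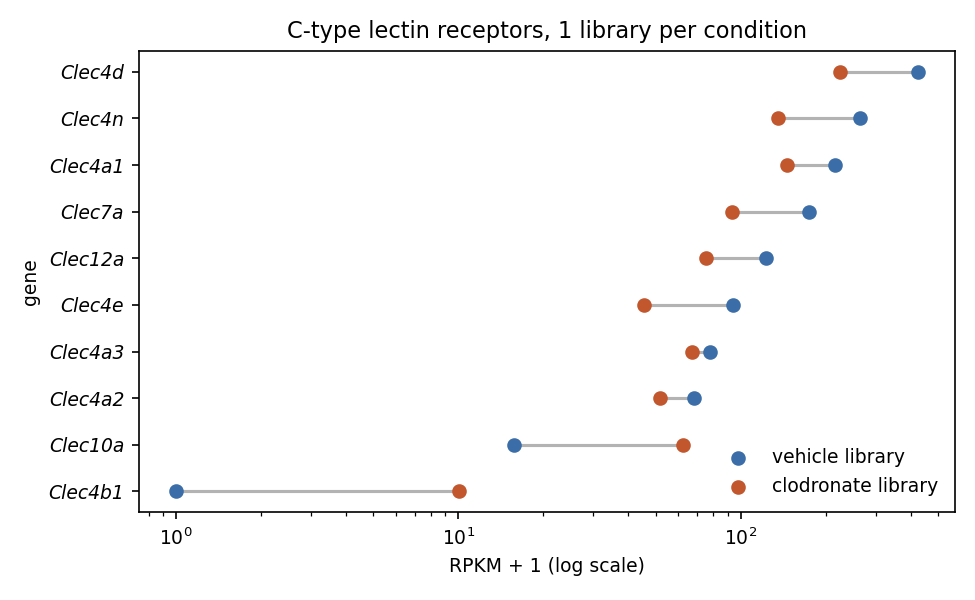
Level of each of the 10 receptors in the vehicle library (blue) and the clodronate library (orange), as RPKM + 1 on a log scale, with 1 library per condition and no error bars. The blue point lies to the right for the 8 receptors from Clec4d down to Clec4a2, and to the left for Clec10a (14.7 against 61.2 RPKM) and Clec4b1 (0 against 9.02 RPKM).

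Among the lower receptors the largest differences were those of 4 activating receptors, Clec4e, Clec4n, Clec4d and Clec7a, the first 3 of which signal through the Fc receptor gamma chain. Clec4d, also named MCL, binds mycobacterial glycolipid and raises the surface level of Mincle. It had 421 RPKM in the vehicle library and 223 RPKM in the clodronate library, a level 1.89-fold lower (log2 ratio -0.91). It ranked first of the 10 receptors in both libraries and lay in the top 1.99% of all genes kept in the vehicle library and the top 3.64% in the clodronate library. Clec4n, dectin-2, recognizes the mannans of fungi. Its level was 262 RPKM with vehicle and 134 RPKM with clodronate, 1.95-fold lower (log2 ratio -0.96). Clec4e, Mincle, is the receptor for trehalose dimycolate and for the nuclear protein Sap130 that dead cells release. With 93.1 RPKM in the vehicle library and 44.3 RPKM in the clodronate library, it was 2.10-fold lower (log2 ratio -1.05). This was the lowest log2 ratio of the 10, and 6.06% of all genes kept had a lower one.

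Clec7a, dectin-1, is the beta-glucan receptor and signals to Syk through a single tyrosine motif in its own tail. Its level was 174 RPKM with vehicle and 92.2 RPKM with clodronate, 1.89-fold lower (log2 ratio -0.91). The levels of Clec4d, Clec4n, Clec4e and Clec7a thus lay within a narrow range of ratios although their levels differed widely. Clec12a, MICL, carries an ITIM and binds uric acid crystals. Its level was 122 RPKM with vehicle and 74.3 RPKM with clodronate, 1.64-fold lower (log2 ratio -0.70).

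The DCIR family, which lies in 1 gene cluster with Clec4n, Clec4d and Clec4e, had log2 ratios closer to 0 than the receptors above. Clec4a1, also named Dcir4, had 214 RPKM in the vehicle library and 145 RPKM in the clodronate library, 1.48-fold lower (log2 ratio -0.56). Clec4a2, the ITIM-bearing DCIR itself, had 67.2 RPKM and 50.7 RPKM, 1.33-fold lower (log2 ratio -0.40). For Clec4a3, Dcir3, the values were 76.6 RPKM and 66.0 RPKM, 1.16-fold lower (log2 ratio -0.21). Clec4a3 was the receptor nearest to no difference, and 34.6% of all genes kept had a lower log2 ratio. It was also the only one whose sign turned under any alternative: with ratios corrected for GC content and transcript length its log2 ratio was 0.15, that of Clec4a2 was -0.041 and that of the other 6 lower receptors lay between -0.81 and -0.36.

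Clec10a, also named MGL1 or CD301a, binds galactose-type sugars and is a usual marker of alternatively activated macrophages. Its level was 14.7 RPKM with vehicle and 61.2 RPKM with clodronate, 4.17-fold higher (log2 ratio 1.99), and 1.54% of all genes kept had a higher log2 ratio. It was among the lowest of the 10 in the vehicle library, in place 9, and came before Clec4a2 and Clec4e in the clodronate library, in place 7. Clec4b1, also named DCAR, pairs with the Fc receptor gamma chain. Its value was 0 with vehicle and 9.02 RPKM with clodronate (log2 ratio 3.32), and no fold is given against a value of 0. In all, 42 genes, Clec4b1 included, were listed at 0 in the vehicle library with at least 9.02 RPKM in the clodronate library and 11 genes the other way round. One of the 42 is Ndufaf1, a factor needed to build mitochondrial complex I in all cells, with 0 and 12.8 RPKM, and it is named here after its values were seen. A 0 in these tables can therefore be a value that was not estimated, and whether this holds for Clec4b1 was not tested.

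**Figure D2:**
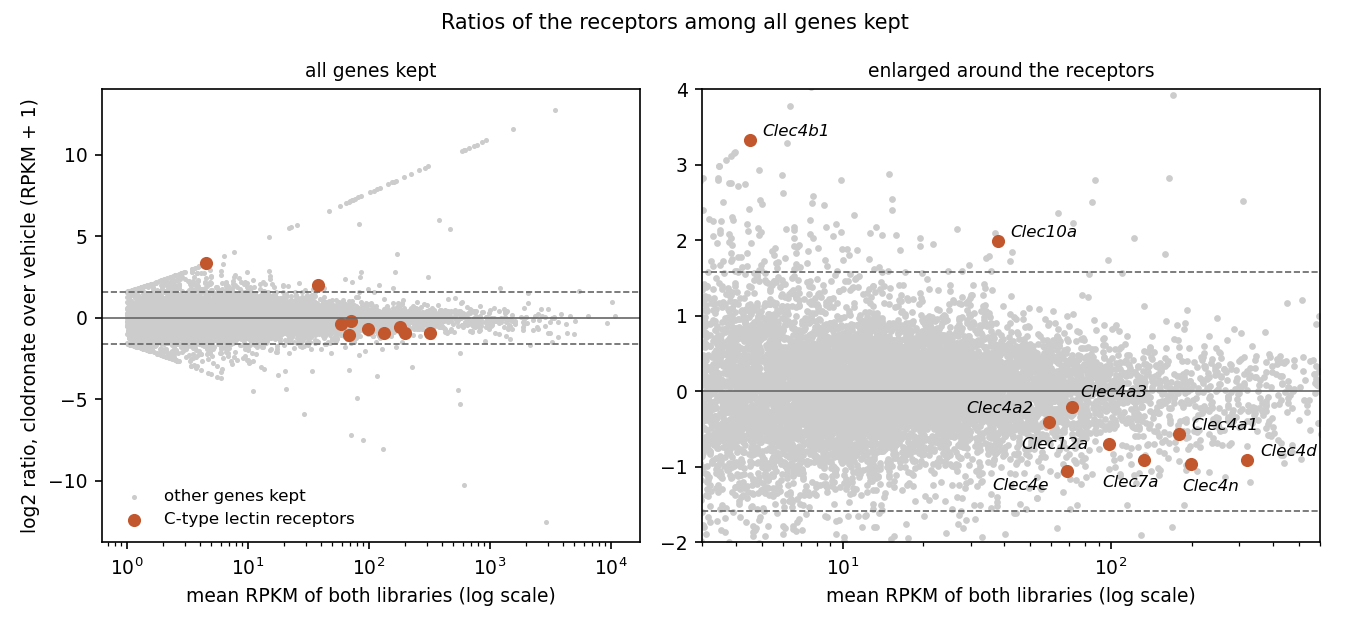
Log2 ratio of clodronate over vehicle (RPKM + 1) against the mean RPKM of both libraries on a log scale, for all genes kept (left, grey) with the 10 receptors (orange), and enlarged around the receptors (right). Dashed lines mark 3-fold. Clec4b1 and Clec10a lie above the upper line, and the other 8 receptors lie between 0 and the lower line.

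At the threshold of 3-fold on the RPKM + 1 scale, 2 of the 10 receptors were higher and 0 were lower, beside 2.86% of all genes kept that were at least 3-fold higher and 2.32% that were at least 3-fold lower. At 2-fold the counts were 2 higher and 1 lower (Clec4e), beside 6.95% and 6.77% of all genes. At 1.5-fold, a threshold chosen after the values were seen, 2 receptors were higher and 5 were lower (Clec4d, Clec4e, Clec4n, Clec7a and Clec12a), beside 16.6% and 16.3% of all genes. With the correction for GC content and length, Clec4e at a log2 ratio of -0.81 no longer passed 2-fold, and Clec4d at -0.56 and Clec12a at -0.46 no longer passed 1.5-fold. Since these values chose the receptors, nothing is read from the counts. Ratios of this size were rarer among well expressed genes. Of the 5913 genes whose mean reached 10 RPKM, 11.7% were at least 1.5-fold lower and 3.62% at least 2-fold lower. The shares were alike on the higher side, at 12.0% and 3.42%, and nothing about the receptors is read from them either.

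In the vehicle library the levels ran from Clec4d through Clec4n, Clec4a1, Clec7a, Clec12a, Clec4e, Clec4a3, Clec4a2 and Clec10a to Clec4b1. In the clodronate library Clec4a1 came before Clec4n, Clec4a3 and Clec10a came before Clec4a2, and Clec4e followed in place 9. Without replicates no neighbors in either order can be said to differ beyond their spread. Against Csf1r, the CSF1 receptor of macrophages and monocytes, with 446 RPKM in the vehicle library and 465 RPKM in the clodronate library, Clec4d stood at a ratio of 0.945 with vehicle and 0.479 with clodronate. The same ratio was 0.209 and 0.0953 for Clec4e and 0.390 and 0.198 for Clec7a. For Clec10a it was 0.0329 and 0.132. Since Csf1r itself was nearly even, these ratios repeat the differences of the receptors. A ratio to another macrophage marker can differ. Of the 16 on the list 11 were higher and 5 were lower with clodronate, C1qc by 1.95-fold, beside 51.6% of all genes kept with a ratio above 0.

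On the chromosomes the receptors fall into 3 groups. The build of the deposited files is mm9. Clec4a1 (chr6:122871866-122884637), Clec4a3 (chr6:122902533-122919896), Clec4b1 (chr6:122999980-123021573), Clec4a2 (chr6:123072708-123094017), Clec4n (chr6:123179861-123197042), Clec4d (chr6:123212125-123225286) and Clec4e (chr6:123231807-123239889) form 1 cluster. Clec12a (chr6:129300262-129315321) and Clec7a (chr6:129411609-129422795) lie farther along chromosome 6, and Clec10a (chr11:69980125-69984338) is on chromosome 11. Each span is the whole locus with its introns, and 0 of the 10 loci overlap another locus of the files.

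Within the first cluster Clec4b1, with a vehicle value of 0, was the only receptor whose ratio did not share the sign of the others. Clec4b1, the receptor with the highest ratio, lies between Clec4a4 and Clec4a2, and both were lower with clodronate. Clec4a4 was near 0 in both libraries, with 0.408 RPKM and 0 RPKM, and Clec4b2, another relative of Clec4b1 in the cluster, was listed at 0 in both. The genes just before the cluster were C3ar1, a complement receptor, with 214 and 243 RPKM, and Necap1, an endocytosis adaptor, with 9.74 and 22.5 RPKM. The 3 receptors at the far end, Clec4n, Clec4d and Clec4e, had the 3 lowest ratios of the 10, although Clec7a was at -0.91 like Clec4d and lay below it, at -0.61 against -0.56, with the correction for GC content and length. In the second group, Clec12b, Clec1b, Clec9a and Clec1a lie between Clec12a and Clec7a and none of them reached 2 RPKM in either library, so that both receptors stood out by level from the genes between them. Olr1, the receptor for oxidized LDL behind Clec7a, had 21.0 and 16.4 RPKM, 1.28-fold lower.

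**Figure D3:**
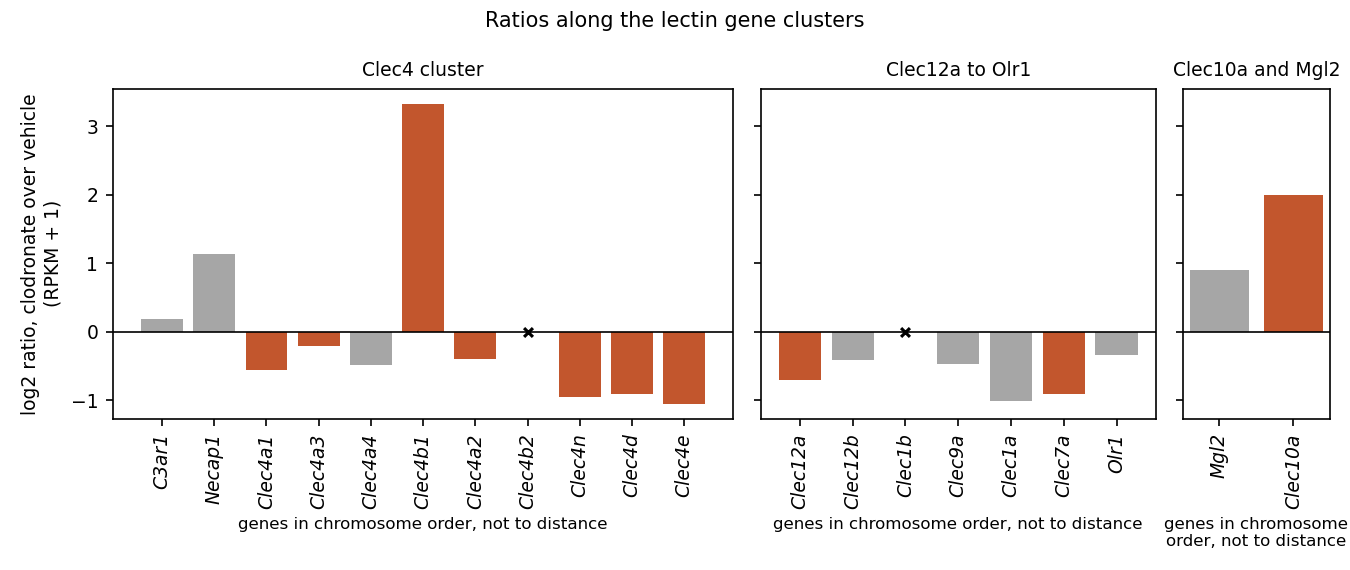
Log2 ratio of clodronate over vehicle (RPKM + 1) of the genes in their order along the chromosome, for the Clec4 cluster, the stretch from Clec12a to Olr1, and Clec10a with its relative Mgl2; receptors described here are orange, other genes grey, and a cross marks a gene listed at 0 in both libraries. Bars of Clec4b1 (3.32) and Clec10a (1.99) point up, and those of the other 8 receptors point down.

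The receptors are relatives, and reads of close copies can be assigned to the wrong gene. Coding sequences were those of the GENCODE M21 transcripts (build GRCm38) that carry the same RefSeq identifiers. Over the aligned bases, with gaps left out, the 45 pairs among the 10 receptors were 57.2% to 87.1% identical, with a median of 62.9%. The alignment of Clec4a2 and Clec4b1, the pair at 87.1%, held 159 gap bases. For 6 receptors, Clec4a1, Clec4a3, Clec4d, Clec4e, Clec7a and Clec12a, no stretch of 50 nt of the coding sequence occurs in another gene, and for Clec4n 1.90% of the stretches do. The untranslated parts of the transcripts, which also enter RPKM, were not compared. Clec4a2 shares 22.7% of its stretches with Clec4a4 and Clec4b1, and Clec4b1 shares 9.17% of its stretches with Clec4a2. If the values of Clec4a2 and Clec4b1 are added, the sum was 67.2 RPKM with vehicle and 59.7 RPKM with clodronate, 1.13-fold lower. How the reads of this pair were divided was not tested.

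Clec10a and Mgl2, the galactose-type lectins MGL1 and MGL2 of the mouse, were 91.5% identical over the aligned bases, with 81 gap bases left out. This was the highest value of all pairs compared, and 27.9% of the stretches of Clec10a occur in Mgl2. Mgl2 was itself higher with clodronate, with 24.7 and 47.1 RPKM (1.91-fold), so that both genes lay in the same direction. Their sum was 39.4 RPKM with vehicle and 108 RPKM with clodronate, 2.75-fold higher (log2 ratio 1.44). The longest stretch that both genes hold without a mismatch is shown here because reads from it cannot be told apart; it covers coding bases 502 to 684 of Clec10a and 547 to 729 of Mgl2. The corresponding stretch of Clec4a2 (coding bases 558 to 639) and Clec4b1 (399 to 480) follows.
Clec10a and Mgl2: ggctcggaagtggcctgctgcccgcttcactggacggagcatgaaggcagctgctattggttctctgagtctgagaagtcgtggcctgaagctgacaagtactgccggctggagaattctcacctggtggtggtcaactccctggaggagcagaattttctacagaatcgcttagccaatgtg
Clec4a2 and Clec4b1: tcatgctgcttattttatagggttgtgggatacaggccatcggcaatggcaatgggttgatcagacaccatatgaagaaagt
The first of these stretches is 183 nt long and the second 82 nt, both longer than the words of 50 nt counted above.

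RefSeq promoters (build GRCm38.p6, from 250 bases before to 50 bases after the start of the gene) were found for 8 of the 10 receptors, all but Clec10a and Clec4n. The letters GAGGAA, the core bound by PU.1 and other ETS factors, which set up much of the myeloid program, were searched on both strands. They occurred in 7 of the 8 promoters, those of Clec4a1, Clec4a3, Clec4b1, Clec4d, Clec4e, Clec7a and Clec12a, and in 31.3% of the 27025 genes with a promoter in the table. The match is thus common to receptors with lower levels and to Clec4b1, and it was not found for Clec4a2. Of the other letters searched, the AP-1 motif TGANTCA occurred in Clec4a2 and Clec12a (8.97% of all genes), the C/EBP palindrome TTGCGCAA in Clec12a (0.207%), the HIF core ACGTG in Clec4e (21.8%) and the TATA box letters TATAAA in Clec4a2, Clec4e and Clec7a (15.7%). The letters TATAAA began 29 bases upstream in Clec4e and 161 bases upstream in Clec4a2. In Clec7a they lay 42 bases after the start, on the opposite strand. None of these motifs contains another and the matches found in the receptors do not overlap. A match is a description of the letters and not of binding.

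The 250 bases before the start are shown for 3 activating receptors that were lower with clodronate and for Clec4b1, which was not, with GAGGAA and its reverse complement TTCCTC in capitals. Clec4d (chr6:123261857-123262106, plus strand), Clec4e (chr6:123289872-123290121, minus strand), Clec7a (chr6:129472780-129473029, minus strand) and Clec4b1 (chr6:123049712-123049961, plus strand) are each read from 5′ to 3′ on the strand of the gene.
Clec4d: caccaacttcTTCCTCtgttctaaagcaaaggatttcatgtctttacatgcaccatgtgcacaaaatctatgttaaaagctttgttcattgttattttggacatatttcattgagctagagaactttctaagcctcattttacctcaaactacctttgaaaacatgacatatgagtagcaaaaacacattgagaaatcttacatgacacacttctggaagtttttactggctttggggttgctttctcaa
Clec4e: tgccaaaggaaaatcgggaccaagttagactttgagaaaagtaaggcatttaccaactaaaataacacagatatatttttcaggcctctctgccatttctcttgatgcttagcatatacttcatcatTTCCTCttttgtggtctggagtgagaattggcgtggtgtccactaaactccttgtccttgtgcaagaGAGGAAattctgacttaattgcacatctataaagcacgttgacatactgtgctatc
Clec7a: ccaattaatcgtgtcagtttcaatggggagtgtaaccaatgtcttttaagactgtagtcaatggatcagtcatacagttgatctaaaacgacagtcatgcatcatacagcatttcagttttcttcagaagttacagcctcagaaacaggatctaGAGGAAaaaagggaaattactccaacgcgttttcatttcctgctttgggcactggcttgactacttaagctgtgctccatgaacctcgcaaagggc
Clec4b1: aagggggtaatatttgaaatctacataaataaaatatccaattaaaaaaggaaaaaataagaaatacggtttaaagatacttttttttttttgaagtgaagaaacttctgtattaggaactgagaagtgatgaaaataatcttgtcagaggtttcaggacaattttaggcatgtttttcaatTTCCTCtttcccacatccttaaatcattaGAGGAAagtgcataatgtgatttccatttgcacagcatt
Clec4e and Clec4b1 each hold the core once on either strand before the start, with the nearest match 56 bases upstream in Clec4e and 39 bases upstream in Clec4b1. Clec7a has a single match 96 bases upstream. Clec4d has 1 match 240 bases upstream and 2 more that begin 7 and 39 bases after the start, outside the stretch shown. The longest run that the promoters of Clec4b1 and Clec4d share around the core is cattaGAGGAAa, 44 bases before the start in Clec4b1 and 34 bases after it in Clec4d. This run was chosen because both promoters hold it. Of the 27025 genes 3 have it in a promoter, namely Clec4b1 and Clec4d themselves and Gm46916, so that nothing is read from its rarity.

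The partners through which these receptors signal were found in both directions. All 20 genes of the list of ITAM adaptors and Syk-Card9 signaling were kept, and their median log2 ratio was 0.10. With clodronate 15 were higher and 5 were lower, beside 51.6% of all genes kept with a ratio above 0. None of them passed 2-fold in either direction. Fcer1g, the gamma chain that Clec4d, Clec4e, Clec4n and Clec4b1 pair with, had 2689.8 RPKM with vehicle and 2397 RPKM with clodronate, 1.12-fold lower. Tyrobp, the related adaptor DAP12, had 2174 and 1644 RPKM, 1.32-fold lower. Per unit of Fcer1g, Clec4d stood at 0.157 in the vehicle library and 0.0931 in the clodronate library, so that receptor and adaptor differed by unequal factors. Syk was at 75.9 and 82.9 RPKM, Card9 at 37.6 and 53.5 RPKM (1.42-fold higher), and Bcl10, which Card9 assembles into a filament for NF-κB activation, at 35.5 and 24.2 RPKM (1.47-fold lower). Plcg2, the phospholipase activated by Syk, had the highest ratio of the list, with 40.5 and 62.0 RPKM (1.53-fold higher).

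On a list of 5 inhibitory phosphatases 3 were higher and 2 were lower, with a median log2 ratio of 0.19. Ptpn6, the phosphatase SHP-1 that ITIM receptors such as Clec4a2 and Clec12a can recruit, had 99.6 RPKM with vehicle and 116 RPKM with clodronate. Of 16 genes listed as outputs of signaling through Syk, 13 were kept. Of these, 4 were higher and 9 were lower, beside 48.4% of all genes kept with a ratio below 0, and the median log2 ratio was -0.29. Il1b, the gene of interleukin-1 beta, had 278 and 97.2 RPKM, 2.86-fold lower, and Il6 had 4.93 and 1.81 RPKM, 2.72-fold lower. The cytokine gene Il10 lay in the opposite direction, with 17.2 and 42.8 RPKM, 2.49-fold higher. The genes of self ligands of these receptors, 7 kept of 8, had a median log2 ratio of 0.074, and Sap130, the ligand of Mincle, had 25.8 and 31.2 RPKM. Among 14 myeloid transcription factors 12 were higher and 2 were lower (median log2 ratio 0.23), beside 51.6% of all genes kept with a ratio above 0. Batf3 (5.77 RPKM with clodronate) and Cebpe (2.41 RPKM) were among the higher ones with a vehicle value of 0. Spi1, which encodes PU.1, had 208 and 333 RPKM, 1.60-fold higher.

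Other lectin receptors were found in both directions. A further list held 28 genes, most of them for C-type lectin receptors, but with others such as Clec16a. Of these, 15 were kept, 9 were higher and 6 were lower with clodronate, beside 51.6% of all genes kept with a ratio above 0. The median log2 ratio was 0.73, and Clec16a (9.64 and 8.51 RPKM) was among the 6 lower ones. At 3-fold 2 were higher and 0 were lower. Mrc1, the macrophage mannose receptor, had 174 RPKM with vehicle and 289 RPKM with clodronate, 1.66-fold higher. The 4 genes of the DC-SIGN family on the list were among the 9 higher ones, with 1.25 and 8.68 RPKM for Cd209a, 17.4 and 43.4 RPKM for Cd209d, 13.5 and 42.4 RPKM for Cd209f, and 1.08 and 2.84 RPKM for Cd209b. Clec5a, a receptor that pairs with DAP12, was 1.32-fold lower (44.6 and 33.7 RPKM), and Clec2d, a ligand of NK cell receptors, was 2.06-fold lower (30.4 and 14.8 RPKM). Without the filter on low values the median of this list was 0, since 6 of its genes were listed at 0 in both libraries.

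**Figure D4:**
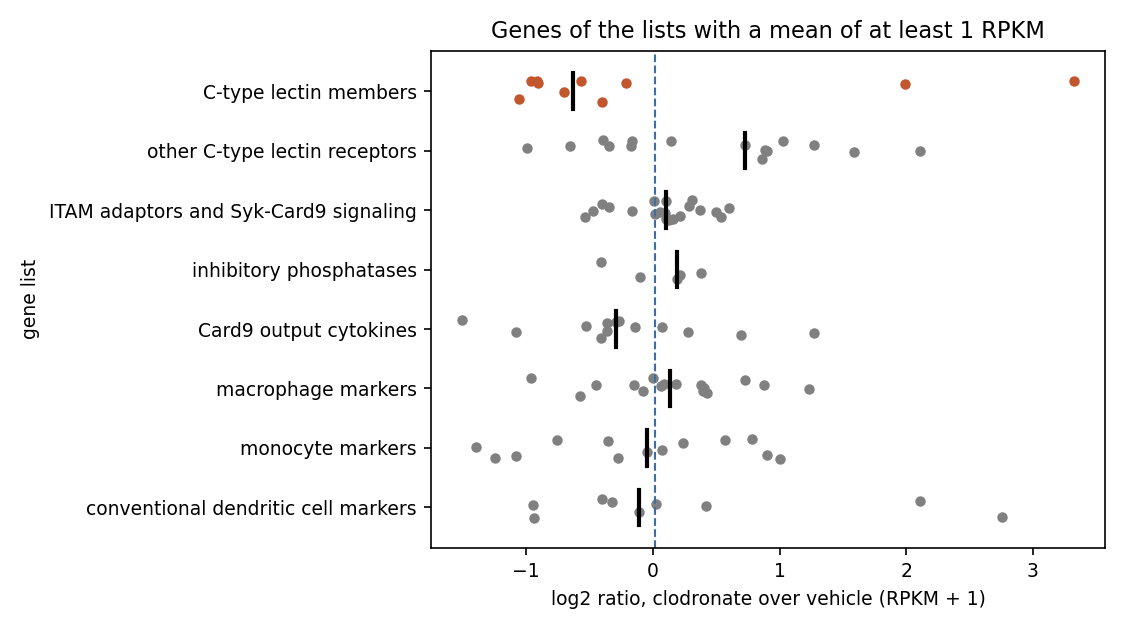
Log2 ratio of clodronate over vehicle (RPKM + 1) of the single genes (points, spread vertically only for legibility) of 8 lists, with the median of each list as a black bar and the median of all genes kept (0.019) as a dashed line. The median of the 10 receptors (orange) is -0.63, that of the list labelled other C-type lectin receptors is 0.73, and that of the Syk-Card9 genes is 0.10.

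Marker genes of the cell types known to express these receptors were read beside them, as levels of RNA and not as shares of cells. All 16 macrophage markers were at 10 RPKM or more in both libraries, with a summed level of 24556 RPKM with vehicle and 24069 RPKM with clodronate and a median log2 ratio of 0.13. Among them C1qa, C1qb and C1qc, which encode the chains of the same complement protein, had unlike ratios, 1.32-fold higher for C1qa, 1.95-fold lower for C1qc and nearly even for C1qb (3372 and 3384 RPKM). Of 14 monocyte markers 13 were kept, 6 higher and 7 lower. Their summed level was 2402 and 3182 RPKM, most of it Fn1 (1530 and 2269 RPKM), and the median log2 ratio of those kept was -0.042. Chil3 and Gngt2 were lower (36.4 and 14.8 RPKM, 172 and 81.1 RPKM), and Plac8 and F13a1 were higher (45.4 and 91.8 RPKM, 132 and 247 RPKM). Of 12 neutrophil markers found, 7 had a value of 0 in both libraries, and the sums were 51.8 and 52.8 RPKM. S100a9 was listed at 0 in both, while its partner S100a8 had 12.7 and 23.1 RPKM and Csf3r, the G-CSF receptor, had 26.4 and 19.3 RPKM, and whether the 0 of S100a9 is a value that was not estimated was not tested. Since Clec4d and Clec4e are also expressed by neutrophils, this is given beside their values. Of 14 conventional dendritic cell markers 9 were kept, 4 higher and 5 lower, with sums of 70.5 and 74.9 RPKM. Of these, 3 were at 10 RPKM or more in both libraries, among them Itgax (21.2 and 19.6 RPKM) and Tnip3 (12.4 and 16.9 RPKM). Flt3 (0 and 0.232 RPKM) and Xcr1 (0.102 and 0.314 RPKM) were near 0. Batf3 was listed at 0 with vehicle and at 5.77 RPKM with clodronate, and Cd209a had 1.25 and 8.68 RPKM. The part of any of these cell types in the differences of the receptors was not tested.

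Markers of other cells had sums far below that of the macrophage markers, but some single genes reached the level of receptors. Ly6a with clodronate was above every receptor but Clec4d. Dcn, a fibroblast marker, had 77.3 RPKM with vehicle and 28.4 RPKM with clodronate, beside 67.2 and 50.7 RPKM for Clec4a2. The libraries are labelled as tumor cells, and of 8 epithelial markers 4 were kept, with sums of 15.8 and 11.4 RPKM. The sums were 160 and 76.9 RPKM for 10 fibroblast markers, of which 7 of the 8 kept were lower, 73.8 and 152 RPKM for 8 plasmacytoid dendritic cell markers, most of it Bst2 (45.4 and 111 RPKM) and Tcf4 (26.8 and 37.9 RPKM), 114 and 88.2 RPKM for 9 mast cell and basophil markers, 28.8 and 159 RPKM for 10 blood progenitor markers, most of it Ly6a (21.1 and 153 RPKM), 14.1 and 21.4 RPKM for 11 T and NK cell markers found, 8.82 and 5.41 RPKM for 7 B cell markers, and 3.34 and 7.84 RPKM for 8 endothelial markers. Each of these sums was below the level of Clec4d alone in the same library, which was 421 and 223 RPKM.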

How the data were processed

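The 2 libraries were compared as vehicle and clodronate, the groups the labels give. The authors deposited RPKM values for 23170 loci per library. The submitters' processing notes name CASAVA 1.8.2, TopHat2 2.0.9, Bowtie 0.12.9, Cufflinks 2.2.1, Cuffdiff and the build mm9. How reads with several matches and the strand were handled is not given in the sources used here. RPKM were summed over lines of the same symbol, which left 22886 genes, and 26 symbols that had turned into numbers were replaced by the RefSeq identifier. Genes whose mean over both libraries reached 1 RPKM were kept, and a log2 ratio used a pseudocount of 1 RPKM, which understates the differences of low genes. No count model was used and no p-value was computed. The receptors and the 18 other gene lists were chosen with earlier results of these data known, and 2 list genes were found under no symbol. The naming rule took all 10 receptors and allowed any list gene, by default up to 4 with the highest mean and up to 4 with the largest log2 ratio. The text says where a further gene was picked with its values known.

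Summed RPKM were 601579 in the vehicle library and 596143 in the clodronate library. The absolute depth is unknown, and no interval was computed. Of 354 loci with a nonzero value below 0.3 RPKM in both libraries, 57 share 1 ratio within 0.1%. This gives the vehicle library 1.23 times the reads of the clodronate library if those 57 loci hold equal read numbers.

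The alternatives were a pseudocount of 0.1 RPKM, no filter, a minimum mean of 5 RPKM, centering on the median, scaling to the upper quartile, the highest line of a repeated symbol and 2-fold in place of 3-fold. A minimum mean of 10 RPKM and a correction for GC content and length, over 10 bins each, were added after seeing the data. Of the steps, only the calling of genes at 3-fold was tested on simulated data, with planted changes larger than 3-fold. Coding sequences came from GENCODE M21 (GRCm38) and promoters from RefSeq (GRCm38.p6), and coordinates of different builds were never combined. Protein sequences were not used here, so that the features of the receptor proteins were not compared. Python 3.11.15, numpy 2.4.6, pandas 2.3.3 and Biopython 1.88 were used.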

Additional observations from a re-analysis of the deposited data

How the results depend on the processing

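The log2 ratios of 9 receptors kept their sign under every alternative in which they passed the filter, and only Clec4a3 turned, from -0.21 to 0.15 with the correction for GC content and length, which leaves 3 receptors with a positive ratio. The median of the receptors ranged from -0.70 to -0.41. The counts of genes at least 3-fold higher and lower were 532 and 480 with a pseudocount of 0.1 RPKM, 127 and 101 with a minimum mean of 5 RPKM, 83 and 62 with a minimum mean of 10 RPKM, and 763 and 744 at 2-fold. Under both stricter filters 1 receptor had a positive ratio, Clec10a, because Clec4b1 did not pass. The log2 ratio of Clec4b1 was 6.51 with a pseudocount of 0.1 RPKM.

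The correction matters because the median log2 ratio of all genes ran from -0.24 in the bin of lowest GC content to 0.29 in the bin of highest, and 9 receptors lie between 39.7% and 45.3% GC, with Clec10a at 51.8%. No paired analysis was possible because there is a single library for vehicle and for clodronate. The files give no counts, so that the precision of low values such as those of Clec4b1 is unknown.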
